A study of Mus musculus with 36 samples.

Results

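The 38 genes described here encode the machinery that burns fatty acids in mitochondria and in peroxisomes, chosen by gene symbol from the 21889 rows of a table of liver RNA abundance. Of these, 21 encode mitochondrial proteins, 10 encode peroxisomal proteins and 7 act in several compartments or feed both routes. RNA-Seq was done on livers of 36 male C57BL/6J mice, 3 mice at each of 12 ages, with no treatment or genetic change. The ages were 2 days before birth (Day -2), Day 0 (taken at birth, before suckling), Days 1, 3, 5, 10, 15 and 20 (suckling), and Days 25, 30, 45 and 60 (after weaning at 21 days). Day -2 and Day 0 are called before suckling here, and Day 60 is the adult reference. Per the paper, Day 0 and Day 1 were timed from birth, and Days 3 to 60 were collected at a fixed morning hour. The hour of day may therefore differ between Day 1 and Day 3, and its part was not tested. Pups came at random from multiple litters, each mouse was measured once at 1 age, and nothing in the labels ties a mouse of one age to a mouse of another. Each value is an FPKM, a fragment count scaled by exon length and by mapped library size, so levels can be set side by side between genes.

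In mitochondrial beta-oxidation a long fatty acid is first joined to coenzyme A, then carried across the inner membrane as a carnitine ester, and then shortened by repeated rounds of dehydrogenation, hydration, dehydrogenation and thiolysis. Peroxisomes run a related spiral on very long and branched chains, with oxidases that hand electrons to oxygen, and pass shortened chains on to mitochondria. In the newborn liver, milk fat replaces placental glucose as the main fuel, and the nuclear receptor PPARα is the best known activator of both routes. These are background facts and not results of these data.

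The tests fitted every age together in limma after log2(FPKM + 1), and p-values were adjusted by Benjamini-Hochberg over the 11149 genes whose mean reached 1 FPKM at some age. All 38 members passed that filter. A member was called higher or lower at an adjusted p under 0.05. Changes given with an SE are log2 fold changes of FPKM + 1, so those of genes near 1 FPKM come out too small. Replicates correlated with Pearson's r of 0.971 to 0.998 across genes, and summed FPKM per mouse was 353712 to 450597. The files give no read counts, so no counting interval is given.

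Markers of other cell types changed over the same ages. Summed FPKM of 7 erythroid markers was 141757 to 195635 at Day -2, 72468 to 84418 at Day 0, 23881 to 34748 at Day 1, and later 687 to 789 at Day 60. The sum of 6 hepatocyte markers was 7039.9 to 7831 at Day -2, 30251 to 39138 at Day 0 and 29120.5 to 31412 at Day 1, and no marker of either list was at 0 at any age. In bulk liver, fewer cells of a type and less RNA per cell cannot be told apart. Skeletal muscle markers summed to 1413 FPKM in Day 0 replicate 1 and to 97.05 in Day 10 replicate 1, and to at most 16.2 in the other mice. Exocrine pancreas markers summed to over 1000 FPKM in 9 mice, each of a different age, with the highest sum, 19144 FPKM, in Day 60 replicate 1. Counts without these mice are given beside the comparisons.

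Over the whole course, 37 of the 38 members differed from Day 60 at 1 or more ages, beside 90.7% of all genes tested. The exception was Acad9, an acyl-CoA dehydrogenase that also assembles respiratory complex I, with a smallest adjusted p of 0.102 over the 11 ages. The mean of a member at its highest age was between 1.73 (Acad9) and 63.9 (Cpt1b) times its mean at its lowest age. This ratio was over 5 for 6 mitochondrial, 8 peroxisomal and 3 other members. The highest mean fell at Day 1 for 14 members, 8 of them mitochondrial, and at Day 60 for 7 members, 5 of them peroxisomal. Ratios and highest ages were not counted over all genes, so these counts have no background beside them.

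**Figure D1:**
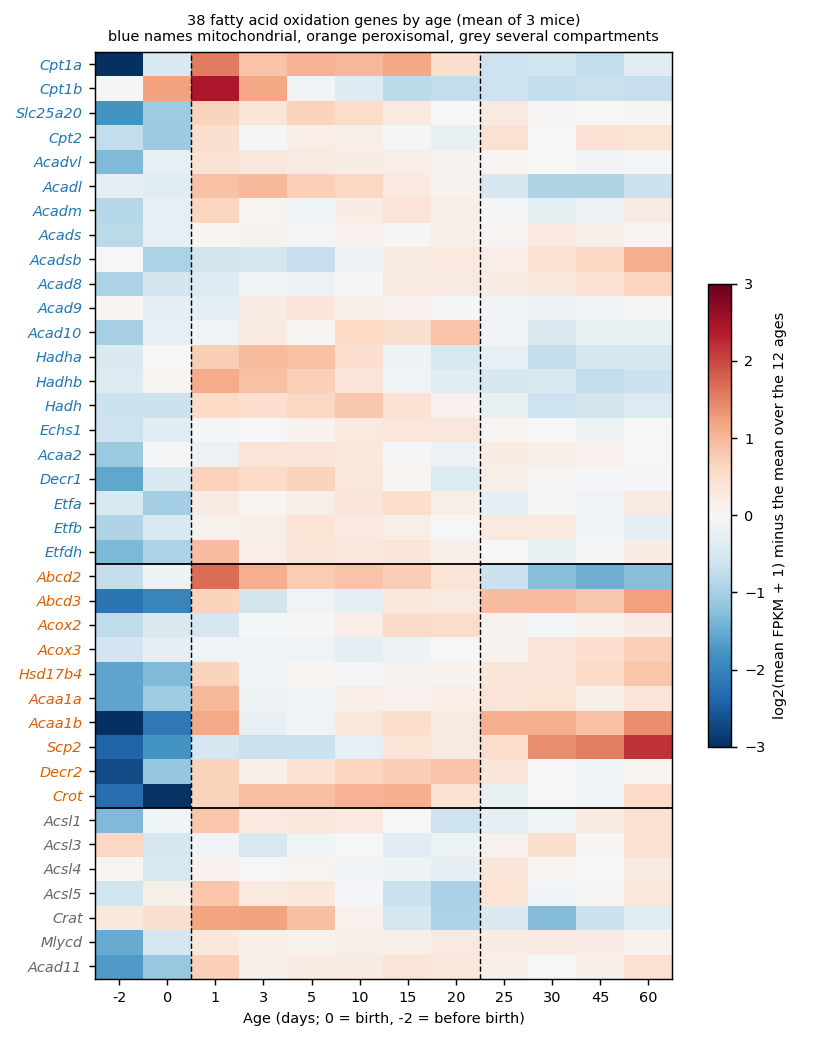
Each row is 1 of the 38 members and each column 1 of the 12 ages in days; colour gives log2(mean FPKM + 1) of 3 mice minus that gene's mean over the ages, limited to 3 in either direction, and dashed lines mark birth to suckling and weaning. From Day 0 to Day 1, 27 rows were called higher (all genes 23.7%). At Day 60, 7 rows, 5 of them peroxisomal, have their highest value, a count not made over all genes.

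Fewer members, and fewer of all genes tested, differed from Day 60 after weaning than at the younger ages given here. At Day -2, 2 members were higher and 27 lower than at Day 60, beside 75.1% of all genes called in either direction. At Day 1, 15 were higher and 5 lower (all genes 65%), and at Day 20, 6 were higher and 9 lower (all genes 15.9%). At Day 25 there were 2 calls, both lower, beside 7.42% of all genes. These were Scp2 (log2 fold change -1.61 ± 0.31, SE, adjusted p = 8.55e-04) and Acox3 (-0.62 ± 0.18, adjusted p = 0.0277). At Day 45 limma called no member against Day 60, with 3 members lower at an unadjusted p under 0.05, beside 0.233% of all genes called. The comparisons with Day 60 share the same 3 adult mice. Without the 9 mice with pancreas markers, Day 60 replicate 1 among them, 2 members were higher and 28 lower at Day -2, 11 higher and 5 lower at Day 1, 5 higher and 6 lower at Day 20 and 1 lower at Day 25, and 36 of the 38 differed at 1 or more ages. With upper quartile scaling Day 1 had 8 members higher and 14 lower than Day 60, so the direction of the smaller differences at that age depends on the scaling. Leaving out Day 1 replicate 2 gave 8 lower calls at Day 1, and leaving out Day 25 replicate 2, Day 60 replicate 1 or Day 60 replicate 2 left 1 lower call at Day 25.

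At birth, before the first feed, Cpt1a, Acaa1b, Decr2 and Cpt1b had the largest rises. From Day -2 to Day 0, 19 members were higher (all genes 13.1%) and 2 lower (all genes 41.4%). By compartment, 12 of 21 mitochondrial members were higher and 1 lower, 3 of 10 peroxisomal members were higher, and 4 of the 7 others were higher and 1 lower. The median log2 fold change was 0.47 over the members and -0.29 over all genes tested. Scaling each library to its upper quartile moved the all-gene median to -0.08, the all-gene split from 1466 higher and 4617 lower to 2206 and 2785, and the members to 27 higher and 1 lower. Without Day 0 replicate 1 and Day 10 replicate 1, the mice with muscle markers, 14 members were higher and 2 lower, and the calls of Acaa1a, Acad11, Acadm, Echs1, Hadha, Hadhb and Cpt2 were lost. Without the mice with pancreas markers 18 were higher and 2 lower. Among cell type lists, 5 of 6 hepatocyte markers were higher and 0 lower at birth, and 6 of 7 erythroid markers were lower and 0 higher. Their part in the changes of the members was not tested.

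Within the first day of life Crot, Acaa1b, Abcd3, Cpt1a and Acaa1a had the largest rises. From Day 0 to Day 1, 27 members were higher (all genes 23.7%) and none lower by limma, also at an unadjusted p under 0.05 (all genes 7.88%). That was 14 of 21 mitochondrial, 8 of 10 peroxisomal and 5 of 7 other members. In each of these 27, all 3 mice of Day 1 were above all 3 of Day 0. How many of all genes did so was not counted, so this says nothing about the members beyond their calls. The median log2 fold change was 0.96 over mitochondrial members, 1.91 over peroxisomal members and 0.19 over all genes. Hepatocyte marker sums at Day 0 and Day 1 overlapped (0 of 6 markers higher and 1 lower), while 6 of 7 erythroid markers were lower; their part in the rise of the members was not tested. With upper quartile scaling the all-gene median was 0.08 with 1607 genes higher and 1330 lower, and 26 members were higher and 0 lower. Without the 9 mice with pancreas markers, 23 were higher (all genes 8.91%), and the calls of Acsl1, Acsl5, Etfb and Hadha were lost.

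**Figure D2:**
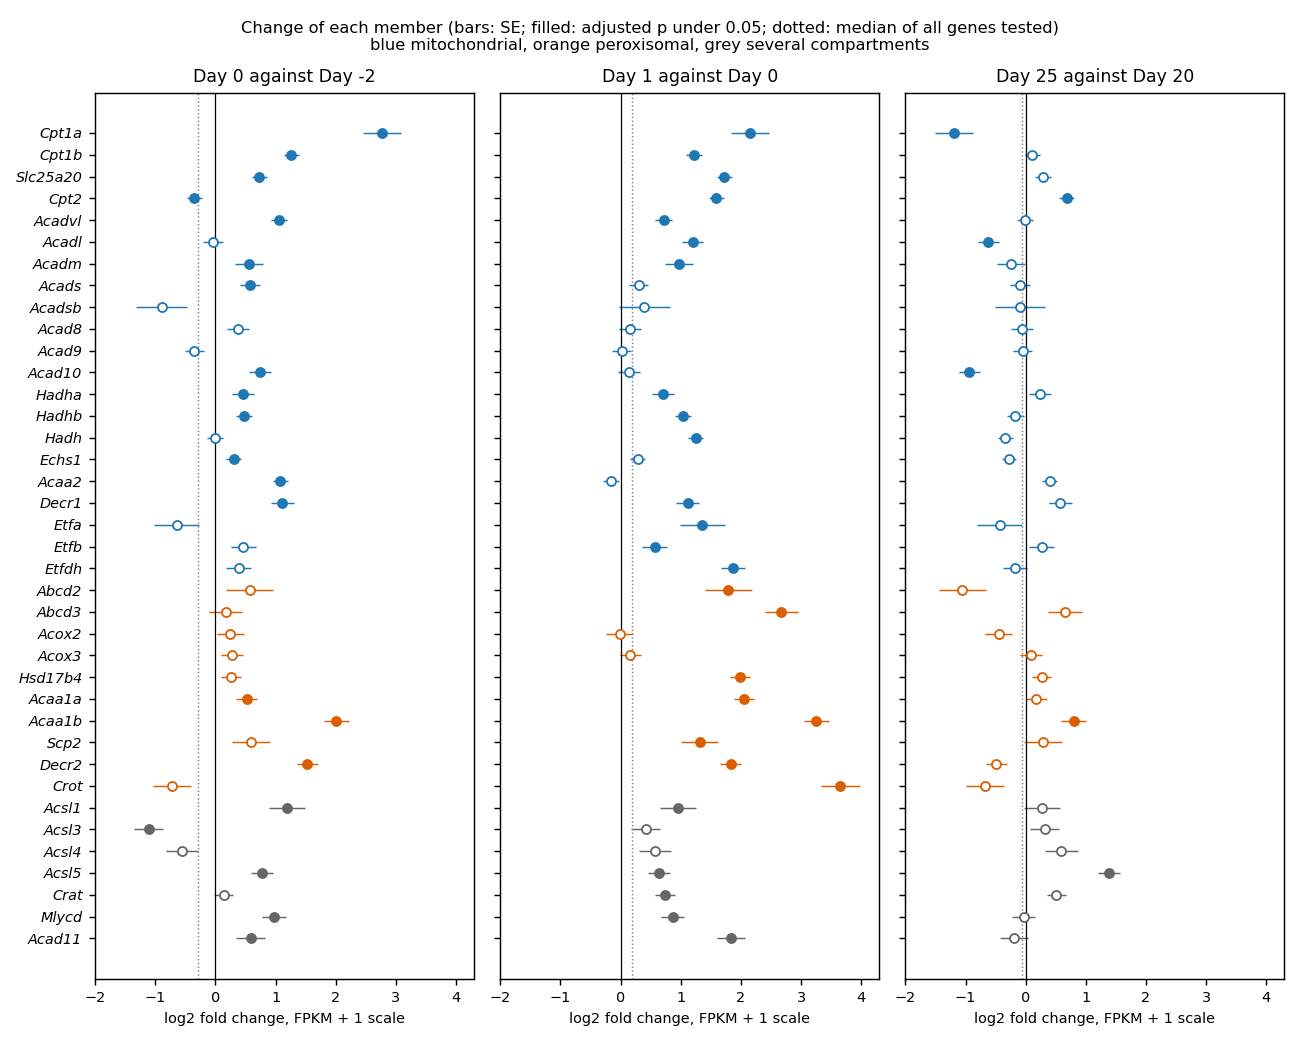
Each row is 1 of the 38 members; points give the log2 fold change on the FPKM + 1 scale with its SE from limma for 3 comparisons of neighbouring ages, filled where the adjusted p was under 0.05, and the dotted line is the median of all genes tested. From Day 0 to Day 1, 27 points are filled and all of these lie to the right of 0; from Day 20 to Day 25, 3 filled points lie on each side.

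Averaged over Days 1 to 20 and set against Day -2 and Day 0, 32 members were higher (all genes 27%) and 1 lower (all genes 40.7%). All 10 peroxisomal members and 19 of 21 mitochondrial members were higher. The lower one was Cpt1b, the muscle form of the entry enzyme, and 4 of the 7 members of several compartments (Acsl3, Acsl4, Acsl5 and Crat) gave no call. The call of Cpt1b is on the log2(FPKM + 1) scale (-0.31 ± 0.07, adjusted p = 4.33e-04); its mean FPKM was in the opposite order, 2.47 in suckling and 2.25 before, and its highest age, Day 1, lies within the suckling block. The median log2 fold change was 0.87 for mitochondrial, 1.72 for peroxisomal and -0.10 for all genes. Upper quartile scaling moved the all-gene median to 0.01, with 3718 genes higher and 3673 lower against 3014 and 4543 as deposited, and the members to 33 higher and 1 lower. Without the mice with muscle markers 30 members were higher, and the calls of Acad9 and Acox3 were lost. Without those with pancreas markers 31 were higher and 1 lower. Of the cell type lists, 6 of 6 hepatocyte markers were higher, 7 of 7 erythroid markers lower and 5 of 5 endothelial markers higher; their part was not tested.

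Of the 4 long-chain acyl-CoA synthetases, which activate fatty acids by joining them to coenzyme A, Acsl1 and Acsl5 had high levels. Acsl1, the main form of hepatocytes, was at 54.2, 38.4 and 43.3 FPKM in the 3 mice of Day -2, 132, 102 and 82.9 at Day 0 and 249, 197 and 167 at Day 1. Acsl5 was at 65.5, 57.6 and 56.9 at Day -2, 99.3, 107 and 103 at Day 0, 175, 169 and 141 at Day 1, and later 53.8, 41.8 and 41.9 at Day 20. In both genes the mice of Day 1 were above those of Day 0 and those of Day 0 above Day -2. Acsl1 rose by 1.19 ± 0.30 (SE, adjusted p = 0.00165) at birth and by 0.95 ± 0.30 (adjusted p = 0.018) by Day 1, and Acsl5 by 0.77 ± 0.18 (9.89e-04) and 0.64 ± 0.18 (0.00965). Acsl3 and Acsl4, which are used more outside the liver, stayed below 4 FPKM in every mouse. Acsl3 had the largest fall of any member at birth, from 2.15, 1.2 and 1.68 to 0.0828, 0.36 and 0.251 FPKM, with no overlap between the mice (-1.11 ± 0.24, adjusted p = 3.88e-04). The first-day call of Acsl1 was also lost without Day 0 replicate 3 or Day 1 replicate 1. At the levels of Acsl3 a pseudocount of 1 compresses the change.

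The carnitine shuttle held the largest changes among mitochondrial members. Cpt1a (chr19:3323301-3385732, plus strand, NCBI37/mm9) encodes the liver form of carnitine palmitoyltransferase 1, the step of entry that malonyl-CoA inhibits. It was at 4.74, 3.31 and 4.09 FPKM at Day -2, 62.8, 19.5 and 29.5 at Day 0 and 183, 154 and 123 at Day 1. The groups did not overlap, but the mice of Day 0 differed among themselves by more than those of the neighbouring ages did relative to their level. Cpt1a rose by 2.77 ± 0.32 (adjusted p = 4.32e-08) and then by 2.16 ± 0.32 (adjusted p = 7.51e-06), the largest rise of any member at birth. Its mice ranged over 101 to 136 FPKM at Day 15 and 70.1 to 77.6 at Day 20, and the adults were at 40.5, 39.0 and 42.2.

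Cpt1b, the muscle form, had a short peak in the newborn liver. Its values were 0.751, 1.04 and 0.955 FPKM at Day -2, 3.65, 4.15 and 2.99 at Day 0, 10.0, 9.14 and 9.75 at Day 1, 3.41, 3.27 and 3.61 at Day 3, and later 0.848, 0.714 and 1.12 at Day 5. The 3 mice of Day 1 lay within 1 FPKM of each other and above every mouse of every other age, and no mouse from Day 10 on reached 1 FPKM. The rise was 1.26 ± 0.13 (adjusted p = 4.56e-09) at birth and 1.22 ± 0.13 (adjusted p = 2.50e-08) by Day 1. Skeletal muscle markers (10 genes) summed to 5.23 to 16.2 FPKM at Day 1 and 4.09 to 6.28 at Day 3, none of them at 0 in all mice of these ages. Day 0 replicate 1, with the muscle sum of 1413 FPKM, had a Cpt1b value between those of the other 2 mice of its age. Cpt1a was still 12.6 to 18.2 times Cpt1b at Day 1. Cpt1b (chr15:89246836-89256294, minus strand) overlaps Chkb, a choline kinase gene on the same strand, which was at 4.15 to 6.32 FPKM at Day 0, 9.77 to 12.1 at Day 1 and 5.58 to 6.06 at Day 60. How fragments of the overlap were divided was not tested.

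**Figure D3:**
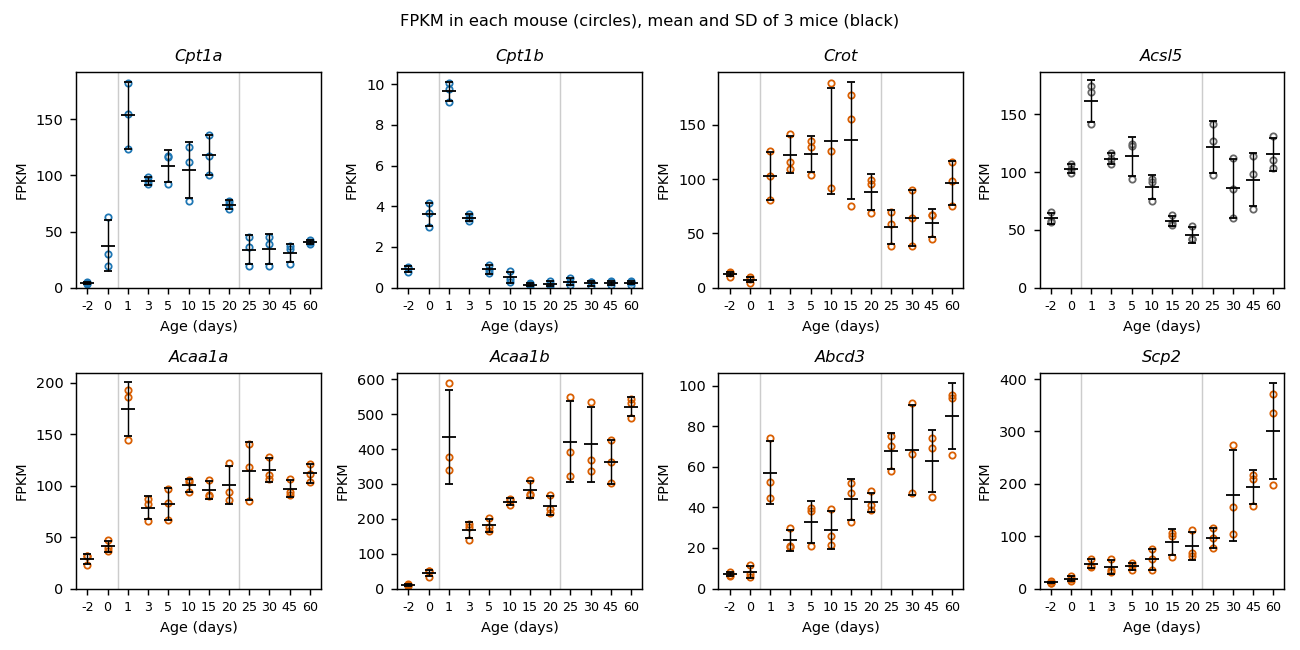
Each circle is the FPKM of 1 mouse at 1 of the 12 ages (days) for 8 members, with the mean and SD of 3 mice in black; vertical lines separate the ages before suckling, during suckling and after weaning, and each panel has its own axis from 0. Cpt1b peaks at 9.64 FPKM at Day 1, Cpt1a is lower after Day 20, and Scp2 is highest at Day 60.

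The translocase Slc25a20 and Cpt2 also rose on the first day. Slc25a20, which carries acylcarnitines across the inner membrane, was at 22.4, 15.8 and 19 FPKM at Day 0 and 66.2, 64.0 and 64.2 at Day 1 (1.73 ± 0.13, adjusted p = 3.42e-11). Cpt2, which returns the acyl group to coenzyme A inside the mitochondrion, fell at birth and then rose. Its values were 15.4, 16.6 and 15.6 at Day -2, 9.61, 12.9 and 14.5 at Day 0 and 40.2, 37.3 and 38.6 at Day 1, with changes of -0.35 ± 0.12 (adjusted p = 0.0188) and 1.59 ± 0.12 (adjusted p = 1.35e-10). The fall was not called with upper quartile scaling (adjusted p = 0.544), without Day -2 replicate 2 or without Day 0 replicate 1, the mouse with muscle markers. The ratio of Cpt1a to Cpt2 ran from 0.1998 to 0.308 at Day -2 to 3.19 to 4.55 at Day 1, and was 0.976 to 1.27 at Day 60. Crat, carnitine acetyltransferase, was highest at Day 3 (31.5 ± 4.11, SD, n = 3) and lowest at Day 30 (4.68 ± 0.59). Mlycd, malonyl-CoA decarboxylase, which removes the inhibitor of Cpt1a, rose from 7.12 to 10.8 FPKM at Day -2 to 14.6 to 21.8 at Day 0 and 29.9 to 44.7 at Day 1 (0.97 ± 0.20 and 0.86 ± 0.20, adjusted p = 1.58e-04 and 0.00148).

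Among the acyl-CoA dehydrogenases, which run the first step of each round and take chains of different length, Acad11 and Acadl had the largest first-day rises. Acadvl, for very long chains, rose at birth by 1.06 ± 0.13 (adjusted p = 2.97e-07) and again by Day 1 by 0.71 ± 0.13 (adjusted p = 2.31e-04), to 147, 176 and 155 FPKM. Acadl, for long chains, gave no call at birth and rose by 1.2 ± 0.17 (adjusted p = 6.58e-06) by Day 1, from 46.2, 40.9 and 29.5 to 100.3, 91.5 and 76.5 FPKM. Acadm, for medium chains, was at 16.8 to 33.2 and 47.8 to 60.7 FPKM at those ages (0.96 ± 0.23, adjusted p = 0.00265). Acads, for short chains, was at 45.5 to 54.8 at Day 0 and 55.3 to 67.1 at Day 1, with no call (0.30 ± 0.16, adjusted p = 0.149). The 2 dehydrogenases of branched-chain amino acid breakdown, Acadsb and Acad8, were highest at Day 60, at 7.58 ± 2.59 and 8.75 ± 0.792 FPKM. Acad11, which acts on long chains in more than 1 compartment, rose from 14.1 to 17.5 FPKM at Day 0 to 51.2 to 65.6 at Day 1 (1.83 ± 0.23, adjusted p = 9.72e-07). Acad10 had its highest mean at Day 20 (10.8 ± 1.96 FPKM).

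The trifunctional protein completes the round for long chains, and its 2 subunits gave very different values. Hadha, the alpha subunit, was at 129.9, 158 and 111 FPKM at Day 1 and 54.7, 60.9 and 51.7 at Day 60. Hadhb, the beta subunit, was at 19.3, 20.3 and 22.1 at Day 1 and 5.15, 5.37 and 5.63 at Day 60. Per mouse, Hadha was 5.03 to 12.2 times Hadhb over all ages, except for 3.88 times in Day 30 replicate 1. In that mouse Hadha was at 28.4 and Hadhb at 7.31 FPKM. Replicates 2 and 3 of Day 30 had 56.7 and 58.8 FPKM of Hadha and 6.13 and 5.38 of Hadhb. Both rose together from Day 0 to Day 1, by 0.71 ± 0.18 (adjusted p = 0.00447) and 1.04 ± 0.14 (adjusted p = 1.33e-06), and both were higher in suckling than after weaning. Of the 39 windows of 100 bases across the longest Hadhb transcript, 36 (92.3%) also matched elsewhere in NCBI37/mm9 with at most 2 mismatches, 28 of them in the pseudogene Gm13910, and none of the Hadha windows did. Of the subunits of the electron transfer flavoprotein, which takes electrons from the dehydrogenases, Etfa had 38.5% such windows and Etfb none, and Etfb was 17.4 to 28.8 times Etfa at Day 1. How fragments that match in several places were counted is not given in the sources used here, so the absolute levels of Hadhb and Etfa are uncertain, and the part of the copies in these gaps was not tested.

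Other enzymes of the later steps did not share 1 pattern. Acaa2, the mitochondrial thiolase and the member of highest mean level (544 FPKM), went from 216, 255 and 260.2 FPKM at Day -2 to 536, 526 and 483 at Day 0 (1.08 ± 0.13, adjusted p = 7.24e-08) and gave no call from Day 0 to Day 1 (-0.16 ± 0.13, adjusted p = 0.338). Hadh, the short-chain hydroxyacyl-CoA dehydrogenase, did the reverse, with 59.2, 76.8 and 79.9 at Day -2, 82.9, 73.2 and 59.3 at Day 0 and 169, 188 and 155 at Day 1 (1.25 ± 0.13, adjusted p = 2.64e-08). Decr1, needed for unsaturated chains, rose at both steps, by 1.11 ± 0.19 and 1.11 ± 0.19 (adjusted p = 1.78e-05 and 5.24e-05). Echs1, the short-chain enoyl-CoA hydratase, had a narrow range, from 52.5 ± 8.93 FPKM at Day -2 to 103 ± 5.57 at Day 20. Etfdh, which passes the electrons on to ubiquinone, rose from 19.6, 16.1 and 12.3 FPKM at Day 0 to 71.4, 56.2 and 54.3 at Day 1 (1.87 ± 0.20, adjusted p = 5.90e-08).

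The peroxisomal transporters Abcd3 and Abcd2 both rose on the first day. Abcd3, the main transporter of branched and dicarboxylic acyl groups into peroxisomes, was at 11.6, 7.40 and 5.69 FPKM at Day 0, 74.4, 44.7 and 52.3 at Day 1, 29.7, 20.9 and 20.5 at Day 3, and later 93.8, 95.2 and 66.0 at Day 60. Its first-day rise was 2.67 ± 0.28 (adjusted p = 2.64e-08), and the mice of Day 3 were all below those of Day 1. Abcd2, a related transporter used more in brain and fat, was at 2.47, 2.37 and 2.34, then 15.8, 9.11 and 8.53 FPKM at the same 2 ages (1.79 ± 0.40, adjusted p = 0.00114) and at 0.223, 0.576 and 0.868 at Day 60. Against the adult, Day 1 was higher than Day 60 for Abcd2 (2.94 ± 0.40, adjusted p = 2.03e-07) and gave no call for Abcd3 (-0.58 ± 0.28, adjusted p = 0.0694).

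Crot, carnitine octanoyltransferase, which lets shortened chains leave the peroxisome, had the largest first-day rise of all members. It was at 14.3, 9.98 and 13.2 FPKM at Day -2, 10.1, 7.50 and 4.68 at Day 0, 125, 103 and 81.0 at Day 1, and later 142, 116 and 109 at Day 3. Every mouse from Day 1 on, at 38.3 FPKM or more, was above all 6 mice before suckling. The change from Day 0 to Day 1 was 3.66 ± 0.32 (adjusted p = 8.50e-10), while the step at birth was -0.72 ± 0.32 (adjusted p = 0.0573) and gave no call. Cpt1a, the mitochondrial counterpart, rose at both steps.

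The peroxisomal thiolases Acaa1a and Acaa1b are near copies that lie close together on chromosome 9. Their coding sequences, of 1275 bases each in GENCODE M1, differ at 44 bases (96.5% identical) and share a run of 327 identical bases, from base 748 to base 1074. The stretch where they differ most, coding bases 460 to 549 with 13 differences, is the part that best tells the transcripts apart. It is shown with differing bases in capitals, 5′ to 3′, and the rest of the coding sequence differs less densely.
Acaa1a: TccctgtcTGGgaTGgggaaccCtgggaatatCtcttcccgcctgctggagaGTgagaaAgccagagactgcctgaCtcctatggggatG
Acaa1b: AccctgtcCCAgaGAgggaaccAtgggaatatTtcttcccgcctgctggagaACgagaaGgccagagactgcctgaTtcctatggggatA
Of the windows of 100 bases along the transcripts, 14.7% of those of Acaa1a and 21.9% of those of Acaa1b matched elsewhere with at most 2 mismatches, so the division of reads between them is uncertain.

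With that limit, the 2 thiolases followed different courses. Acaa1a (chr9:119250412-119259413, plus strand) was at 22.9, 31.4 and 31.3 FPKM at Day -2, 47.2, 36.7 and 39.5 at Day 0, 144, 186 and 193 at Day 1, and later 111, 103 and 121 at Day 60. Acaa1b (chr9:119057141-119066211, minus strand) was at 8.27, 11.7 and 10.5, 50.1, 33.3 and 49.1, 339.8, 589 and 377 and 489.8, 543 and 532 at the same ages. Acaa1a had its highest mean at Day 1 and Acaa1b at Day 60. Acaa1b rose by 2.01 ± 0.20 (adjusted p = 6.30e-09) at birth and by 3.25 ± 0.20 (adjusted p = 1.53e-12) by Day 1, against 0.52 ± 0.17 (0.0135) and 2.05 ± 0.17 (4.97e-10) for Acaa1a. Per mouse, the ratio of Acaa1b to Acaa1a was 0.335 to 0.373 at Day -2, 0.909 to 1.24 at Day 0, 1.96 to 3.17 at Day 1, and later 4.39 to 5.26 at Day 60. Between these ages there was no overlap. The range at Day 1 did overlap those of Days 3, 5, 10, 15, 20 and 30, with 2.01 to 2.25 at Day 3 and 3.16 to 4.19 at Day 30. The difference between the 2 genes was not tested.

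Scp2 and Hsd17b4 had their highest means in the adult. Scp2, whose locus makes both the thiolase SCPx and the lipid carrier SCP2 that the table does not separate, was at 23.1, 18.5 and 13.9 FPKM at Day 0, 57.0, 43.1 and 41.1 at Day 1, 68.1, 111 and 62.1 at Day 20, and later 334, 372 and 198 at Day 60. Its adult mice were all above its mice of Day 20, although 1 of them was well below the other 2. Of the windows of Scp2, 51% also matched elsewhere, 10 of them in the pseudogene Scp2-ps2, so its level is uncertain. Hsd17b4, the bifunctional enzyme of bile acid and very long chain oxidation, was at 15.0 ± 1.51 FPKM at Day 0, 62.7 ± 5.58 at Day 1, 36.6 ± 3.35 at Day 3, and later 70.2 ± 12.9 at Day 60 (SD, n = 3). Decr2, the peroxisomal dienoyl-CoA reductase, rose at birth from 4.36, 5.34 and 5.74 to 15.8, 18.4 and 15.8 FPKM (1.53 ± 0.18, adjusted p = 5.77e-08) and reached 57.8, 69.7 and 58.0 by Day 1 (1.83 ± 0.18, adjusted p = 6.13e-09).

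The oxidases Acox2 and Acox3, of the first peroxisomal step, gave no call on the first day. Acox2, for bile acid intermediates and branched chains, was at 17.3, 32.8 and 37.6 FPKM at Day 0 and 34.1, 25.4 and 24.2 at Day 1 (-0.01 ± 0.22, adjusted p = 0.977). Acox3 was at 1.78, 2.02 and 2.43 and 2.82, 2.88 and 1.72 (0.16 ± 0.18, adjusted p = 0.512). In both, the mice of the 2 ages overlapped. Acox2 was highest at Day 15 (60.5 ± 1.19) and Acox3 at Day 60 (5.21 ± 0.503).

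Summed over members, peroxisomal transcripts were higher relative to mitochondrial ones at Day 1 than at Day 0, and the ratio was highest in the adult. The 10 peroxisomal members summed to 109, 115 and 117 FPKM at Day -2, 196, 174 and 185 at Day 0, 919.6, 1135 and 895 at Day 1, 629.7, 609 and 571 at Day 5, and later 1299, 1395 and 1148 at Day 60. The 21 mitochondrial members summed to 783, 961 and 936 at Day -2, 1528, 1371 and 1378 at Day 0, 2057, 2331 and 2081 at Day 1, 2278, 2743 and 2117 at Day 5, and later 1508, 1655 and 1676 at Day 60. The mitochondrial sum had its highest mean at Day 5 and the peroxisomal sum at Day 60. The log2 ratio of the peroxisomal to the mitochondrial sum was -2.97, -2.97 and -2.90 at Day 0, -1.16, -1.04 and -1.22 at Day 1, -1.85, -2.10 and -2.09 at Day 3, -1.22, -1.23 and -1.33 at Day 20, and later -0.21, -0.25 and -0.55 at Day 60.

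Before suckling the ratio was -2.97 ± 0.12 at Day -2 and -2.95 ± 0.04 at Day 0 (SD, n = 3), and the mice of these ages overlapped. It was 1.81 higher at Day 1 than at Day 0 on the log2 scale, every mouse of Day 3 was below every mouse of Day 1, and every mouse of Day 60 was above every younger mouse. Averaged over ages, suckling was 1.40 above the ages before suckling and the ages after weaning were 0.77 above suckling, beside a spread of 0.14 (SD) between mice of one age. Without the mice with pancreas markers the 3 differences were 1.78, 1.44 and 0.71. In other genes of both routes, the median log2 fold change of suckling against after weaning was -0.02 (16 mitochondrial) and -0.08 (20 peroxisomal). These medians differed less between compartments than those of members (0.29 and -0.25). Against before suckling, the medians of the other genes were 0.77 and 1.25. The other peroxisomal genes summed to 1561 to 1805 FPKM at Day 20 and 2051 to 2395 at Day 60. The other mitochondrial genes summed to 579 to 590 and 564 to 614. The ratio is a description of a chosen set of genes and was not tested. It leans on a few abundant genes: Acaa1b alone made up 19.1 to 26.6% of the peroxisomal sum at Day 0 and 37 to 52.0% at Day 1, and Scp2 8.30 to 15.2% at Day 20 and 17.3 to 26.6% at Day 60. Without the most abundant member of each compartment (Acaa1b and Acaa2), the first-day difference was 1.06 and that between suckling and before 0.96, and with the median of log2(FPKM + 1) over members they were 0.41 and 0.51.

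**Figure D4:**
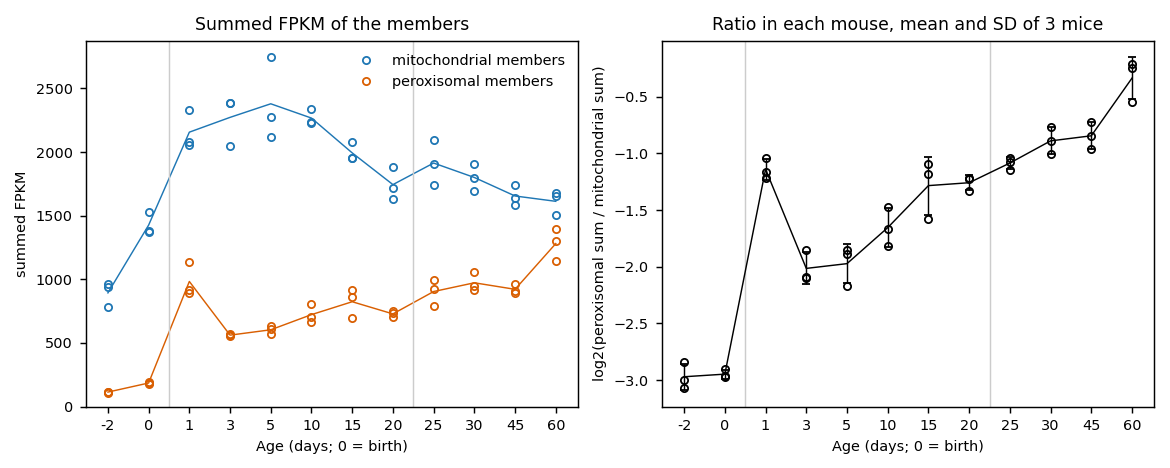
Left, summed FPKM of the 21 mitochondrial and 10 peroxisomal members in each mouse (circles) by age in days, with lines through the means; right, the log2 ratio of the 2 sums in each mouse with the mean and SD of 3 mice. The ratio is between -3.07 and -2.84 before suckling, rises to between -1.22 and -1.04 at Day 1, drops back by Day 3 and is highest at Day 60.

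At weaning few members moved between neighbouring ages. From Day 20 to Day 25, 3 members were higher (all genes 3.94%) and 3 lower (all genes 3.26%), and 32 gave no call; at an unadjusted p under 0.05 there were 9 higher and 8 lower. The higher calls were 6 with a pseudocount of 0.1, a filter at 5 FPKM or the replicate number as a block, and 5 with upper quartile scaling or no mean-variance trend. With each mouse left out in turn, 2 to 6 members were higher and 1 to 4 lower. The median log2 fold change was -0.03 over the members and -0.07 over all genes. Acsl5 rose most, from 53.8, 41.8 and 41.9 FPKM at Day 20 to 127, 97.3 and 141 at Day 25 (1.39 ± 0.18, adjusted p = 4.09e-06). Cpt1a fell most, from 77.6, 70.1 and 74.3 to 36.4, 19.5 and 45.0 FPKM (-1.19 ± 0.32, adjusted p = 0.0162), with all mice of Day 25 below those of Day 20. Cpt2 moved the other way, from 21.7, 23.7 and 23.8 to 35.4, 40.3 and 37.1 (0.68 ± 0.12, adjusted p = 4.24e-04).

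The other 3 calls at weaning were Acaa1b, Acad10 and Acadl. Acaa1b was at 227, 216 and 269.7 and 323, 549.5 and 391 FPKM (0.79 ± 0.20, adjusted p = 0.0135), Acad10 at 10.2, 9.30 and 13 and 4.85, 4.94 and 5.62 (-0.94 ± 0.18, adjusted p = 6.69e-04), and Acadl at 49.9, 50.9 and 55.9 and 37, 25.3 and 39.9 (-0.63 ± 0.17, adjusted p = 0.0223). Of the windows of Acad10, 17.3% also matched Acad12, a neighbouring copy. Exocrine pancreas markers summed to 6714 FPKM in Day 20 replicate 2 and to 5.00 to 8.68 at Day 25. Without the 9 mice with pancreas markers, 2 members were higher and 2 lower, and Cpt1a (-1.23, adjusted p = 0.105) and Acaa1b (0.73, adjusted p = 0.0943) gave no call. Leaving out Day 20 replicate 3 or Day 25 replicate 2 ended the calls of Cpt1a and Acadl and left 1 lower call, Acad10. The call of Cpt1a was also lost without Day 20 replicate 1, that of Acadl without Day 20 replicate 2 and with all libraries scaled to an equal sum (-0.61, adjusted p = 0.0703), and that of Acaa1b without Day 20 replicate 2 or Day 25 replicate 2.

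Compared as blocks of ages, suckling differed from after weaning for most members and also for most of all genes tested, in both directions. Against Days 25 to 60, Days 1 to 20 were higher for 18 members (all genes 68.1%) and lower for 10 (all genes 11.7%). Of mitochondrial members 14 were higher and 3 lower, of peroxisomal members 3 were higher and 5 lower, and of the others 1 was higher and 2 lower. The median log2 fold change was 0.29 for mitochondrial and -0.25 for peroxisomal members, and 0.39 over all genes tested. With upper quartile scaling the all-gene median was 0.12 (4857 genes, 44.6%, higher and 2924, 26.9%, lower) and the members were 10 higher and 20 lower, so the direction of a small change in this comparison depends on the scaling. Without the mice with pancreas markers 17 members were higher and 9 lower.

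Members whose direction and call held under both scalings stood at the ends of the range. Higher in suckling were Abcd2 (2.01 ± 0.18, adjusted p = 3.76e-11), Cpt1a (1.63 ± 0.14, 2.77e-11), Acadl (1.34 ± 0.08, 3.60e-15), Hadhb, Crat, Hadh, Cpt1b, Hadha, Crot and Acad10. For Cpt1a, Acadl and Hadh every mouse of Days 1 to 20 was above every mouse of Days 25 to 60. That separation was not counted over all genes, so it has no background beside it. Lower in suckling were Scp2 (-1.62 ± 0.14, adjusted p = 2.83e-11), Abcd3 (-0.93 ± 0.13, 1.47e-07), Acadsb, Acaa1b (-0.78 ± 0.09, 1.29e-08), Acox3, Acsl3, Acad8, Hsd17b4, Cpt2 and Acsl5. In these 10 the mice of the 2 blocks overlapped, and the call of Acsl5 was lost in 7 of the alternatives, 6 of them with 1 mouse left out. Erythroid markers (7 of 7), endothelial markers (5 of 5) and 5 of 6 macrophage markers were higher in suckling too, and their part was not tested.

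**Figure D5:**
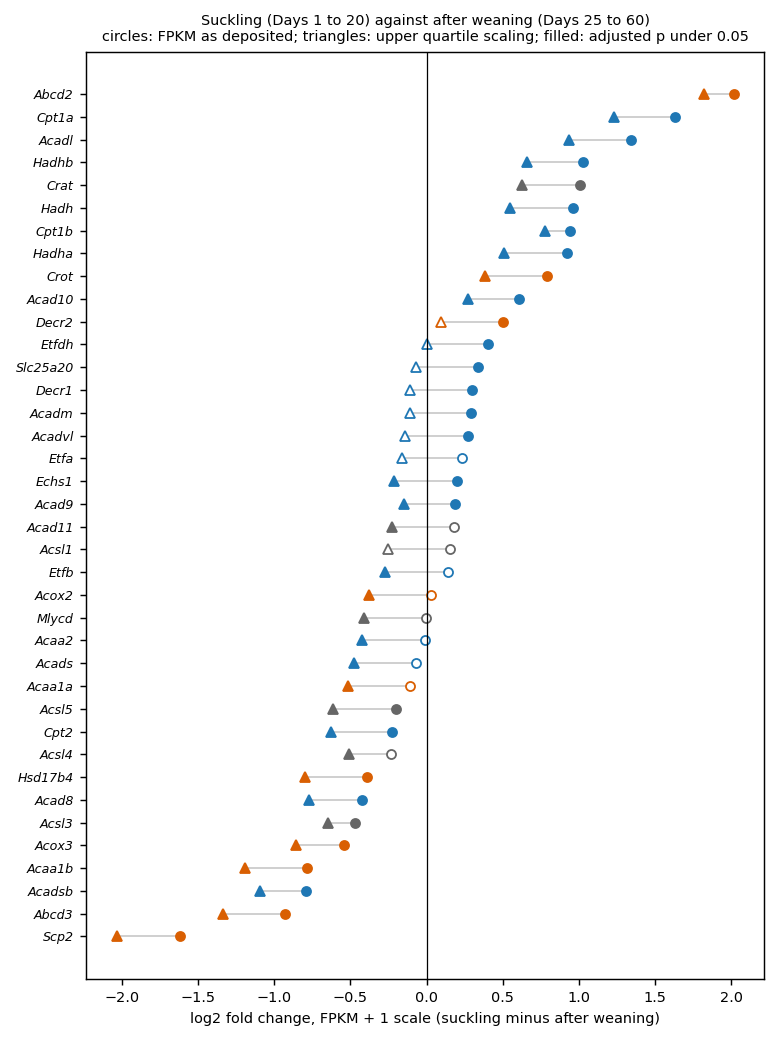
Each row is 1 of the 38 members; circles give the log2 fold change of suckling against after weaning from the FPKM as deposited and triangles after upper quartile scaling, filled where the adjusted p was under 0.05. All triangles lie to the left of their circles, and 7 members that were called higher as deposited (Etfdh, Slc25a20, Decr1, Acadm, Acadvl, Echs1 and Acad9) change sign.

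Other genes of the 2 routes, outside the 38, also rose on the first day. From Day 0 to Day 1, 16 of 20 other peroxisomal genes, 9 of 14 peroxins (the proteins that build peroxisomes) and 8 of 16 other mitochondrial genes were higher and none lower, beside 23.7% higher and 7.88% lower of all genes. The largest rises among the peroxisomal genes were those of Ehhadh, the peroxisomal bifunctional enzyme (3.82 ± 0.35, from 23.1, 14.5 and 11.6 to 272, 235 and 206 FPKM, adjusted p = 2.75e-09), and Acot3, an acyl-CoA thioesterase (3.08). Ehhadh was back at 53.7, 29.7 and 32.4 FPKM by Day 3. Among the mitochondrial genes they were those of Acot2, a thioesterase (2.10), and Slc22a5, the carnitine transporter of the plasma membrane (1.47). Of the peroxins, Pex16 (1.04) and Pex13 (0.99) rose most. At birth, from Day -2 to Day 0, 7 other peroxisomal genes were higher and 4 lower, 4 other mitochondrial genes were higher and 1 lower, and 4 peroxins were higher (all genes 13.1% higher and 41.4% lower). In suckling against before, 17 of 20 other peroxisomal genes were higher and 2 lower, 15 of 16 mitochondrial genes higher and 1 lower, and 11 of 14 peroxins higher and 1 lower (all genes 27% and 40.7%). From Day 20 to Day 25, 3 peroxisomal genes were higher and 1 lower, 1 mitochondrial gene was lower and no peroxin was called by limma (all genes 3.94% and 3.26%); Nudt7, a peroxisomal coenzyme A hydrolase, rose by 2.21 ± 0.22 (adjusted p = 2.40e-08) from 41.9 to 197 FPKM, and Slc27a2, a very long chain acyl-CoA synthetase, fell by 1.06 (adjusted p = 0.00118). In suckling against after weaning, 7 peroxisomal genes were higher and 8 lower, 4 mitochondrial genes higher and 6 lower, and 4 peroxins higher and 4 lower (all genes 68.1% and 11.7%).

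Of the regulators of oxidation, 7 of 9 listed genes were tested. At birth 5 were higher (all genes 13.1%), and from Day 0 to Day 1, 2 were higher (Sirt3 and Esrra) and 2 lower (Acacb and Acaca; all genes 23.7% and 7.88%). In suckling against before, 4 were higher (Ppara, Sirt3, Rxra and Esrra) and 2 lower (Acacb and Ppard; all genes 27% and 40.7%). From Day 20 to Day 25, 3 were higher (Acacb, Ppard and Acaca; all genes 3.94%), and in suckling against after weaning 2 were higher (Ppara and Sirt3) and 3 lower (Acacb, Acaca and Ppard; all genes 68.1% and 11.7%). Ppara, which encodes PPARα, was at 5.72, 2.98 and 4.29 FPKM at Day -2, 7.80, 9.33 and 8.90 at Day 0, 18.4, 13.3 and 9.10 at Day 1, and later 33.9, 24.1 and 19.5 at Day 10. It rose at birth (0.89 ± 0.37, adjusted p = 0.0411) and gave no call from Day 0 to Day 1 (0.55 ± 0.37, adjusted p = 0.253). Acaca and Acacb encode the acetyl-CoA carboxylases that make malonyl-CoA, the inhibitor of Cpt1a. Acacb was at 2.87, 5.57 and 8.60 FPKM at Day 0, 1.54, 1.23 and 1.34 at Day 1, 0.348, 0.322 and 0.59 at Day 20, and later 13.5, 9.71 and 12.9 at Day 25, a change of -1.40 ± 0.25 (adjusted p = 1.19e-04) and then of 3.19 ± 0.25 (adjusted p = 1.60e-10). Acaca was at 3.83, 3.00 and 3.15 and 6.97, 6.02 and 6.54 FPKM at Days 20 and 25 (0.80 ± 0.21, adjusted p = 0.0172). Cpt1a was lower at Day 25 than at Day 20, a call lost without the mice with pancreas markers. A link between the transcripts of Acacb, Acaca and Cpt1a was not tested.

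Promoter windows of RefSeq (GRCm38.p6, 250 bases before to 50 after the start) were searched for the direct repeat of AGGTCA with 1 base between, the form PPARα binds with its partner RXR, on both strands and with up to 2 mismatches in its 12 letters. Windows were found for 31 of the 38 members, and 4 of these (12.9%) held such a repeat, against 4.4% of 27025 genes. The exact AGGTCA half-site, which a repeat with mismatches need not contain, was in 5 of the 31 (16.1%) and in 18.1% of all. The 4 were Slc25a20, Echs1 and Etfa in the mitochondrial set and Acox2 in the peroxisomal set. For Slc25a20 and Acox2 it lay just after the start, and for Echs1 and Etfa before it. A match is a description of letters and not a site. The 250 bases before the start are shown for Echs1 (chr7:140116422-140116671, minus strand) and Etfa (chr9:55512244-55512493, minus strand), with the repeat in capitals, to show repeats that each differ from the perfect form at 2 letters.
Echs1: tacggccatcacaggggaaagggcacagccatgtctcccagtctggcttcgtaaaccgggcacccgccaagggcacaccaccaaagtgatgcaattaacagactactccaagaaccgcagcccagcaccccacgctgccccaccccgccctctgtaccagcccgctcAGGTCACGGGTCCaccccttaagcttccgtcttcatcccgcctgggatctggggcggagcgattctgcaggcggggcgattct
Etfa: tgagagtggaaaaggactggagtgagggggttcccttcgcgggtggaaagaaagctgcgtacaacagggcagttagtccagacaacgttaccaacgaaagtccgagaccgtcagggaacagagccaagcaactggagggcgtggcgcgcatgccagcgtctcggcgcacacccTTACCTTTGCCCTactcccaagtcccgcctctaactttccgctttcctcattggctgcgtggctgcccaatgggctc
In Echs1 the repeat reads in the direction of the gene and in Etfa on the opposite strand. Members with the largest first-day rises and a window (Crot, Acaa1b and Abcd3) held no repeat of this form in it, which says only that these letters are not in the window.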

How the data were processed

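RNA-Seq of liver poly-A RNA (unstranded, paired ends) from 36 mice was mapped by the authors with TopHat 1.2.0 to NCBI37/mm9 and quantified with Cufflinks 1.0.3 against Ensembl, per the submitters' processing notes and the paper. The deposited table holds 1 FPKM value per gene symbol and mouse, on the linear scale and without counts. Cufflinks' handling of reads matching several places is not given in the sources used here, and the depth behind each value is not given by the files.

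The members, their compartments and all gene lists (oxidation genes, peroxins, regulators and cell type markers) were chosen with earlier results of these data known. Values were taken as log2(FPKM + 1); the 11149 genes that averaged 1 FPKM or more at some age were tested with limma 3.58.1 in R 4.3.3, 1 mean per age, a mean-variance trend and Benjamini-Hochberg adjustment at 0.05. For the count of members differing from Day 60 at any age, adjustment was over genes and 11 comparisons together. All 38 members may be named; from other lists, the largest rises and falls among called genes, Ppara, Acaca and Acacb. Adipose markers (5 genes, 1 tested) gave no call in any comparison. Macrophage markers gave 1 higher and 2 lower of 6 at birth, 3 higher by Day 1, 3 higher in suckling against before, and none from Day 20 to Day 25 by limma. At birth, exocrine pancreas markers gave 4 higher of 7 and skeletal muscle markers 4 higher of 10, of which 9 were tested. Muscle markers summed to 1413 FPKM in Day 0 replicate 1 and to 5.57 and 5.15 in the other mice of Day 0. At Day -2 they summed to 7.40 to 11.0 FPKM. Neither list gave a call from Day 0 to Day 1 or from Day 20 to Day 25. In suckling against before, 0 muscle markers were higher and 3 lower. Against after weaning, 5 pancreas markers and 1 muscle marker were higher in suckling. Endothelial markers gave 1 higher of 5 at birth, none by Day 1 and 1 lower from Day 20 to Day 25, and hepatocyte markers 5 higher of 6 at birth, 1 lower from Day 20 to Day 25 and 2 higher and 2 lower in suckling against after weaning. The fits were also run on simulated data, with normal noise around flat means and a small share of genes changed from Day 25 on. That run holds no shift of most genes, so it cannot probe the dependence on scaling.

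Positions came from GENCODE M1 (NCBI37/mm9). Transcript windows of 100 bases, every 50 bases, were mapped with minimap2 2.31. Alternatives were a pseudocount of 0.1, no filter or a filter at 5 FPKM, upper quartile scaling, scaling to an equal sum, a replicate block, no trend, each mouse left out, other summaries of the compartments and, chosen after seeing the data, leaving out mice with muscle (2) or pancreas (9) markers. P-values measure the spread between mice of an age.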

Additional observations from a re-analysis of the deposited data

How the results depend on the processing

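For the 5 comparisons between ages or blocks, the 5 ages given against Day 60 and the count over any age, counts of called members were within 1.5 times of the reported value under the alternatives run, except as follows. Against Day 60, upper quartile scaling gave 1 higher call at Day -2 and 8 higher and 14 lower at Day 1, and scaling to an equal sum gave 2 higher and 1 lower at Day 25, where leaving out the mice with pancreas markers gave 1 lower. With each mouse left out, these counts were 2 to 3 higher and 26 to 27 lower at Day -2, 14 to 15 and 5 to 8 at Day 1, 5 to 7 and 7 to 10 at Day 20, 0 and 1 to 3 at Day 25, and 0 at Day 45. Alternatives for single ages against Day 60 were chosen after the data were seen. From Day -2 to Day 0, the 2 lower calls became 4 with a pseudocount of 0.1, 1 with a filter at 5 FPKM or upper quartile scaling, and 5 with the replicate block, and were 2 to 5 with each mouse left out. From Day 20 to Day 25, the 3 higher calls became 6 with a pseudocount of 0.1 or a filter at 5 FPKM, 5 with upper quartile scaling or no mean-variance trend and 6 with the replicate block, and were 2 to 6 (higher) and 1 to 4 (lower) with each mouse left out. In suckling against before, the single lower call was 1 to 2 with each mouse left out, and the call of Acad9 was lost in 30 settings. In suckling against after weaning, upper quartile scaling gave 10 higher and 20 lower in place of 18 and 10, and changed the sign of 7 called members, Slc25a20 to -0.072, Acadvl to -0.14, Acadm to -0.11, Acad9 to -0.15, Echs1 to -0.21, Decr1 to -0.11 and Etfdh to -0.00052, as each library was rescaled. The peroxisomal to mitochondrial difference was 0.41 (Day 1 against Day 0) and 0.51 (suckling against before) with the median of log2(FPKM + 1), and 1.06 and 0.96 without the most abundant member of each compartment; the cause of other shifts was not tested. With each mouse left out these differences were 1.76 to 1.85 and 1.38 to 1.44, and 0.74 to 0.79 for after weaning against suckling.

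Replicate numbers name different animals. Deviations from the age means correlated between same-numbered mice with a median r of 0.13 (-0.68 to 0.83, 198 pairs), against -0.05 between different numbers (396 pairs). All 3 correlations were over 0.1 in 10 of 66 pairs of ages, short of the rule that every pair passes, so the numbers were not used to pair the mice. The replicate block moved no other count by over 1.5 times.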
